A study of Homo sapiens with 6 samples.

Results

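The genes described here are 5 transcription factors of luminal urothelium (GATA3, PPARG, ELF3, GRHL3 and KLF5) and the 5 uroplakins UPK1A, UPK1B, UPK2, UPK3A and UPK3B. Their probesets were found by gene symbol. On the HG-U133 Plus 2.0 array they were read by 16 probesets (10 for the regulators and 6 for the uroplakins) of the 54613 tested, and they are 10 of 19775 genes with a named probeset. A probeset is a group of short oligonucleotides that together report on 1 transcript or a few related ones. mRNA was measured in EJ/T24 cells, an established line grown from an invasive human bladder carcinoma, on 6 arrays. Cells for 3 arrays were transfected with FOXA1 and cells for the other 3 (control) received empty vector, which the labels call pUC19 and the study describes as the empty form of a pcDNA3 vector. All 6 were grown in DMEM with 10% FCS and transfected by lipofection with 24 μg of DNA in 90 mm dishes at 70% confluence. The share of cells that took up plasmid is not stated in these sources. The methods speak of triplicate experiments without saying if each array stands for its own culture, so every p-value reflects spread between arrays that may be technical.

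The urothelium lines the bladder, and its outermost umbrella cells carry plaques of uroplakin proteins that make the surface watertight. In the luminal layers these cells are built under the control of factors that include GATA3 and PPARG, and carcinomas that keep this program are called luminal. FOXA1, a forkhead factor that opens closed chromatin for other regulators, belongs to the same program. Signals from all cells of a dish were read together, so fewer cells expressing a gene and less RNA in each cell cannot be told apart.

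The values are MAS5 signals, an intensity in arbitrary units on a linear scale, in which levels of different probesets cannot be set against each other. To judge whether a member was measurable, a background level of 19.9 was taken, the 90th percentile of the mean signals of 41 probesets for 20 genes that mark other tissues (lymphocytes, endothelium, muscle, nerve, retina, testis and others). A probeset was called near background when its mean was at or under this level in both groups. As the level is a percentile of these same probesets, some of them exceed it by definition. Of those 20 genes 3 were not near background at their brightest probeset. Passing the level thus does not show that a gene was expressed. By this measure 29661 of all 54613 probesets were near background. Of the 16 member probesets 11 were, among them all of those for GATA3, ELF3, GRHL3, UPK1A, UPK2, UPK3A and UPK3B. The 5 that were not read PPARG, KLF5 (2 probesets) and UPK1B (2 probesets), and those of UPK1B passed the level only through their FOXA1 transfected means. With the median of all probeset means, 14.5, as the level, 9 members were near background, as were 25436 of all probesets. With the 20th percentile of all signals, 3.5, 3 members were, as were 6387 of all probesets. Other markers were read as a check of the cell type, each at its brightest probeset with exactly 1 symbol. Probesets annotated with several symbols or none were not read, so a dim marker is not shown to be absent. The mesenchymal filament gene VIM averaged 4068 in FOXA1 transfected and 3836 in control cells, the epithelial keratin gene KRT18 averaged 2478 in FOXA1 transfected and 2261 in control cells, and the adhesion gene CD44 averaged 2391 in FOXA1 transfected and 2157 in control cells. The other simple epithelial keratins were dim, KRT8 averaging 30.3 in FOXA1 transfected cells and 28.4 in controls and KRT7 averaging 27.4 in FOXA1 transfected cells and 21.0 in controls, the second without overlap. KRT19 was under 3.5 in all 6 arrays. The umbrella cell keratin KRT20 (3.27 in FOXA1 transfected and 3.53 in control cells), the basal keratin KRT5 (8.07 and 8.53) and the epithelial cadherin CDH1 (3.07 and 1.33) were near background in both groups.

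**Figure D1:**
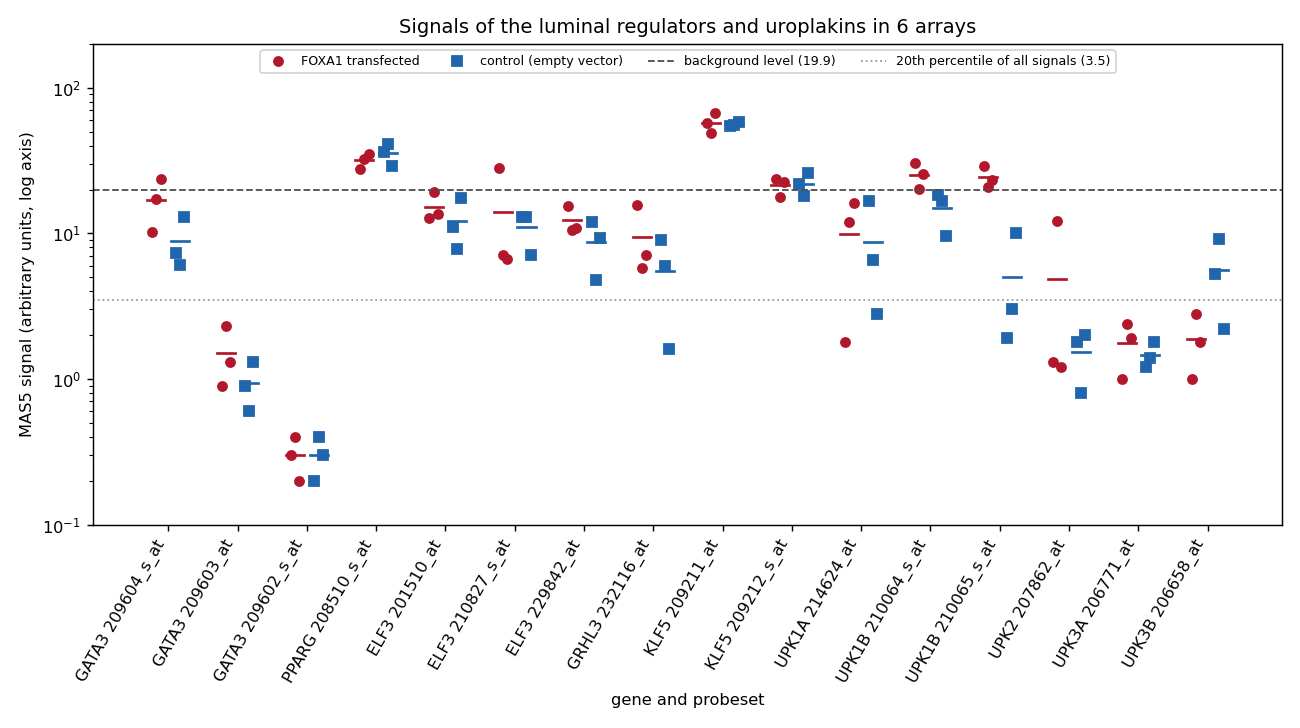
MAS5 signal (arbitrary units, log axis) of each member probeset in the 3 FOXA1 transfected arrays (circles) and the 3 control arrays (squares), with group means as short bars. The dashed line is the background level of 19.9 and the dotted line the 20th percentile of all signals, 3.5. The groups stand apart at the UPK1B probesets alone among the 16.

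The transfected gene was read first, as a check of the labels. At the brighter of its 2 probesets (204667_at) FOXA1 had signals of 38.9, 34.8 and 31.9 in FOXA1 transfected cells, against 21.8, 24.4 and 21.0 in control cells. The FOXA1 transfected arrays were all higher, with means of 35.2 ± 3.52 in FOXA1 transfected against 22.4 ± 1.78 in control cells (SD, n = 3 each). On the log2 scale they differed by 0.65 (SE 0.23, limma adjusted p = 0.307). The exact two-sided permutation test gave p = 0.1, the smallest value possible in a design of this size. Signed values throughout are FOXA1 transfected minus control as the labels name the arrays, and this direction runs opposite to that of the study's own table of changed genes. At the dimmer probeset (237086_at), near background, the signals were 2.5, 6.8 and 6.6 in FOXA1 transfected and 8.0, 7.3 and 5.9 in control cells. The sources used here do not say whether the probes of either lie in the transfected sequence. Of 20 measured genes that mark other tissues, 2 (10%) were also higher on all FOXA1 transfected arrays than on any control array. Of all genes 12.5% were, each read at its brightest probeset. The 2 were the lymphocyte gene CD79A and the endothelial gene PECAM1, with log2 differences of 0.60 and 0.47.

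No member probeset passed limma with Benjamini-Hochberg adjustment over all probesets, in either direction, and none passed SAM (significance analysis of microarrays, the test named in the study's methods). Over the whole table limma called 32 probesets at an adjusted p under 0.05 (0.0586%), 21 of them higher and 11 lower in FOXA1 transfected cells. At an unadjusted p under 0.05 there were 2 member probesets, both for UPK1B and both higher, where 11.3% of all probesets reached that value. Those same 2 were the members in which every FOXA1 transfected array lay above every control array (10.5% of all probesets), and in none of the 16 did every FOXA1 transfected array lie below (5.86% of all probesets).

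UPK1B, a tetraspanin that carries UPK3A or UPK3B to the cell surface, gave the largest log2 difference of the members. At probeset 210065_s_at its signals were 29.2, 20.7 and 23.1 in FOXA1 transfected cells, against 1.9, 3.0 and 10.1 in control cells. All FOXA1 transfected arrays lay above the background level, whereas all control arrays lay under it and 2 of them at or under the 20th percentile. The means were 24.3 ± 4.38 in FOXA1 transfected and 5.0 ± 4.45 in control cells (SD, n = 3 each), with a log2 difference of 2.64 (SE 0.62, 95% interval 1.27 to 4.01, adjusted p = 0.161 from limma). This is a ratio of 6.24 with an interval of 2.41 to 16.1, and by its unadjusted p of 0.00139 (limma) the probeset ranked 468 of 54613. Signals so low have no reliable order, and with those under 3.5 set to 3.5 the log2 difference was 2.27.

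The other UPK1B probeset, 210064_s_at, ran the same way with a smaller difference. It had 30.4, 20.1 and 25.5 in FOXA1 transfected cells, against 18.3, 16.7 and 9.6 in control cells. Again the groups did not overlap, although the lowest FOXA1 transfected array, at 20.1, was close to the highest control array, at 18.3. The means were 25.3 ± 5.15 in FOXA1 transfected and 14.9 ± 4.63 in control cells (SD, n = 3 each), a log2 difference of 0.80 (SE 0.35, 95% interval 0.03 to 1.57, adjusted p = 0.420 from limma) and a ratio of 1.74. The exact two-sided permutation p was 0.1 at each of the 2 probesets. Both lie in the same gene and share the same arrays, so they are not independent measurements, and across the 6 arrays their log2 signals had a Pearson r of 0.44. When each array was left out in turn, the log2 difference ranged from 2.13 to 3.33 at 210065_s_at and from 0.51 to 0.98 at 210064_s_at.

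UPK1B lies on chromosome 3, and the 250 bases before its start (chr3:119173348-119173597, plus strand, GRCh38.p14, RefSeq) are shown because this was the member whose groups did not overlap. The capitals mark the 10 bases next to the start.

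UPK1B: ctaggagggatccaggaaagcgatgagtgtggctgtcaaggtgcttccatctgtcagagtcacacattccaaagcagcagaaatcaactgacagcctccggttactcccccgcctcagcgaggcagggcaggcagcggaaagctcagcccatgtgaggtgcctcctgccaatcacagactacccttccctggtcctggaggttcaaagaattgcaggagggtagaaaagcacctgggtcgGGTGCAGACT

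The forkhead core TGTTTAC, searched on both strands, was absent from this stretch. It was also absent from the 20 promoter windows of the 8 member genes in the table (250 bases before to 50 after each start), where 3.42% of 35116 windows hold it. This says only that these letters are not in these windows.

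The remaining uroplakins were at or near background. UPK1A, the tetraspanin partner of UPK2, had 1.8, 11.9 and 16.1 in FOXA1 transfected and 16.6, 6.6 and 2.8 in control cells. Its groups overlapped over nearly their whole range (log2 difference 0.06, SE 0.91, 95% interval -1.95 to 2.06, adjusted p = 0.990 from limma), so that even a large difference in either direction lies inside the interval. UPK2, a small uroplakin that spans the membrane once in complex with UPK1A, had 1.3, 12.1 and 1.2 in FOXA1 transfected and 1.8, 0.8 and 2.0 in control cells. Here 1 FOXA1 transfected array stood far above the other 5. Its log2 difference was 0.90 (SE 1.0, adjusted p = 0.784 from limma), and -0.19 without that array, FOXA1 transfected array 2. UPK3A, the partner of UPK1B in the plaque, was under 3.5 in all 6 arrays, at 1.0, 2.4 and 1.9 in FOXA1 transfected and 1.2, 1.4 and 1.8 in control cells. No level can be read from such signals (log2 difference 0.20, adjusted p = 0.950 from limma). UPK3B, a relative of UPK3A that is also made by mesothelium, had 1.0, 2.8 and 1.8 in FOXA1 transfected and 5.3, 9.2 and 2.2 in control cells. It was the uroplakin with lower signals in FOXA1 transfected cells (log2 difference -1.47, SE 0.82, 95% interval -3.27 to 0.33, adjusted p = 0.538 from limma), with overlap, and the difference was -0.66 with signals under 3.5 set to 3.5. Among the 6 uroplakin probesets, 2 of them for UPK1B, 5 lay above 0, with a median log2 difference of 0.50. Over all probesets 58.2% did, with a median of 0.08. The differences of UPK1A, UPK2 and UPK3A changed sign under some other settings.

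Of the regulators, PPARG and KLF5 were above background in both groups. PPARG, a nuclear receptor for fatty acid ligands that binds DNA with RXRA, had 27.9, 32.3 and 35.1 in FOXA1 transfected cells, against 36.2, 41.3 and 29.2 in control cells. The groups overlapped, and the means were 31.8 ± 3.63 in FOXA1 transfected and 35.6 ± 6.07 in control cells (SD, n = 3 each). The log2 difference was -0.15 (SE 0.22, adjusted p = 0.840 from limma; exact permutation p = 0.4). The 95% interval of the ratio, 0.641 to 1.26, leaves room for a moderate difference in either direction.

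KLF5, a zinc finger factor needed for urothelial maturation in the mouse, was read by 2 probesets. At 209211_at, the brighter, it had 56.9, 48.8 and 67.3 in FOXA1 transfected cells, against 54.4, 55.8 and 58.4 in control cells. The control arrays lay inside the range of the FOXA1 transfected arrays. The means were 57.7 ± 9.27 in FOXA1 transfected and 56.2 ± 2.03 in control cells (SD, n = 3 each), a ratio of 1.02 with a 95% interval of 0.790 to 1.31 (0.03 on the log2 scale, SE 0.17, adjusted p = 0.972 from limma). This was the narrowest interval of any member probeset. The second KLF5 probeset (209212_s_at) had 23.6, 17.9 and 22.6 in FOXA1 transfected and 21.9, 18 and 26.1 in control cells. The log2 difference there was -0.04 (SE 0.29, adjusted p = 0.978 from limma). With the arrays quantile normalized or centred on their medians, every FOXA1 transfected array lay below every control array at this probeset. The adjusted p was 0.831 and 0.840 (limma). Under these settings 16.3% and 13.5% of all probesets had no overlap, counting both directions.

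GATA3, the zinc finger factor used as a marker of luminal urothelium, was read by 3 probesets, all of them near background. At the brightest (209604_s_at) it had 10.3, 17.2 and 23.5 in FOXA1 transfected and 7.3, 6.1 and 13 in control cells. FOXA1 transfected arrays 2 and 3 exceeded every control array and array 1 did not. The means were 17 ± 6.60 in FOXA1 transfected and 8.80 ± 3.69 in control cells (SD, n = 3 each), and the log2 difference was 0.95 (SE 0.49, 95% interval -0.12 to 2.02, adjusted p = 0.501 from limma). Both of the other GATA3 probesets were under 3.5 in all 6 arrays, with signals of 0.9 to 2.3 in FOXA1 transfected and 0.6 to 1.3 in control cells at 209603_at, and 0.2 to 0.4 in each group at 209602_s_at. Their log2 differences were 0.65 and 0.

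ELF3, an ETS factor restricted to epithelia, was near background at each of its 3 probesets. At 201510_at, the brightest, it had 12.8, 19.2 and 13.5 in FOXA1 transfected and 11.0, 7.8 and 17.4 in control cells (log2 difference 0.38, SE 0.43, adjusted p = 0.787 from limma). At 210827_s_at the difference was 0.06, and its sign was not stable. The signals there were 28.1, 7.1 and 6.7 in FOXA1 transfected and 13, 12.9 and 7.1 in control cells, and the difference was -0.62 without FOXA1 transfected array 1 and -0.23 without control array 3. At 229842_at the signals were 15.5, 10.5 and 10.9 in FOXA1 transfected and 11.9, 4.8 and 9.3 in control cells (log2 difference 0.58). The ELF3 probesets did not follow each other from array to array, with Pearson r of -0.49, 0.53 and 0.26 between pairs over the 6 arrays.

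GRHL3, a grainyhead-like factor needed for umbrella cell differentiation in the mouse, had 15.6, 5.8 and 7.1 in FOXA1 transfected and 9.0, 6.0 and 1.6 in control cells. The groups overlapped and the interval was wide (log2 difference 0.96, SE 0.76, 95% interval -0.71 to 2.64, adjusted p = 0.681 from limma). In the regulators as a group 7 probesets lay above 0, 2 below and 1 at 0, with a median of 0.22. The median over all probesets was 0.08.

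**Figure D2:**
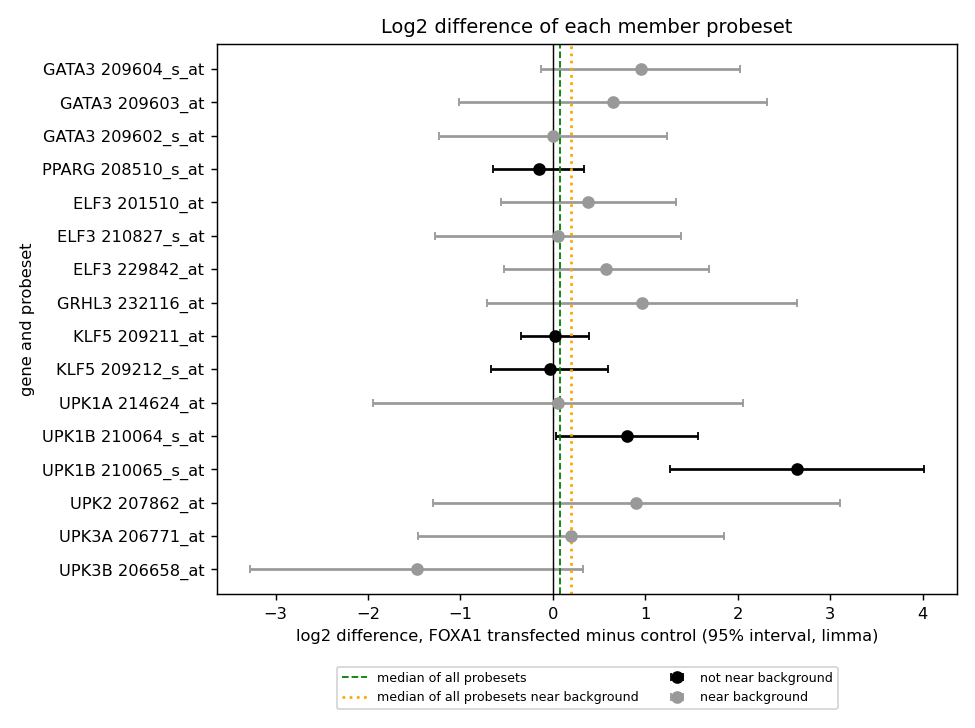
Log2 difference of each member probeset, FOXA1 transfected minus control (x axis), with 95% intervals from limma. Black points are not near background and grey points are, and the lines mark 0, the median of all probesets (0.08) and the median of all probesets near background (0.19). The intervals of the UPK1B probesets alone exclude 0, before any adjustment for the number of probesets.

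GATA3 itself is a reader of GATA sites, so the letters AGATAA were searched on both strands of the same promoter windows. They were found in 2 of the 20 windows, where 10.3% of all windows hold them, and neither this motif nor TGTTTAC contains the other. The GRHL3 window on chromosome 1 holds 2 matches, 200 and 169 bases before the start (chr1:24319145-24319174 and chr1:24319176-24319205), and a window of PPARG on chromosome 3 holds 1 match, 159 bases before that start (chr3:12301804-12301833). All are given on the plus strand of GRCh38.p14, from RefSeq, with the match in capitals, as descriptions of sequence and not as sites of binding.

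GRHL3, far match: ctttaagccaagTTATCTgtttgtccctgt
GRHL3, near match: cttttcctctagTTATCTtgcttctttcca
PPARG: cttaccaagagaAGATAAtataaggaagga

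Over all 16 member probesets 12 had log2 differences above 0, 3 below and 1 at 0, with a median of 0.29. Of all probesets 58.2% lay above 0, with a median of 0.08. The member count moved with the scale of the arrays: with quantile normalization 8 of 16 lay above 0 (49.5% of all probesets), and with each array centred on its median 9 did (40.5% of all probesets). Of all 29661 probesets near background 61.1% lay above 0, with a median of 0.19. Read by its brightest probeset, each gene gave 1 value, and 8 of the 10 members lay above 0 where 59.2% of all genes did.

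Several measures of the arrays were read beside these differences. The ratio of 3' to 5' signal of ACTB, which is lower in intact RNA, was 2.37 ± 0.228 in FOXA1 transfected and 1.73 ± 0.188 in control cells (SD, n = 3 each), and the groups did not overlap (two-sided exact permutation p = 0.1). For GAPDH it was 0.920 and 0.899 (exact permutation p = 0.3). The median signal of an array was 14.4 to 17.5 in FOXA1 transfected and 12.3 to 16.1 in control cells, with overlap (exact permutation p = 0.2). Of 20 measured genes that mark other tissues, 14 had log2 differences above 0 and 6 below 0 (median 0.23). Their summed signal was 212 to 295 in FOXA1 transfected and 179 to 226 in control cells, with overlap. Of these 17 were near background, 3 with means under 3.5. CD79A had 47.7, 42.3 and 47.4 in FOXA1 transfected cells, against 25, 29.8 and 36.5 in control cells (log2 difference 0.60, unadjusted p = 0.0144, adjusted p = 0.303, limma). PECAM1 had 42.8, 54.9 and 52.0 in FOXA1 transfected cells, against 30.5, 35.8 and 42.2 in control cells (log2 difference 0.47, unadjusted p = 0.0378, adjusted p = 0.406, limma). These 2 of the 20 genes (10%) were higher on every FOXA1 transfected array, as FOXA1 and UPK1B were, where 12.5% of all genes were. The lens gene CRYAA, near background, differed by 1.40 with overlap. The part of these measures in the differences of UPK1B, the other members and FOXA1 was not tested.

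**Figure D3:**
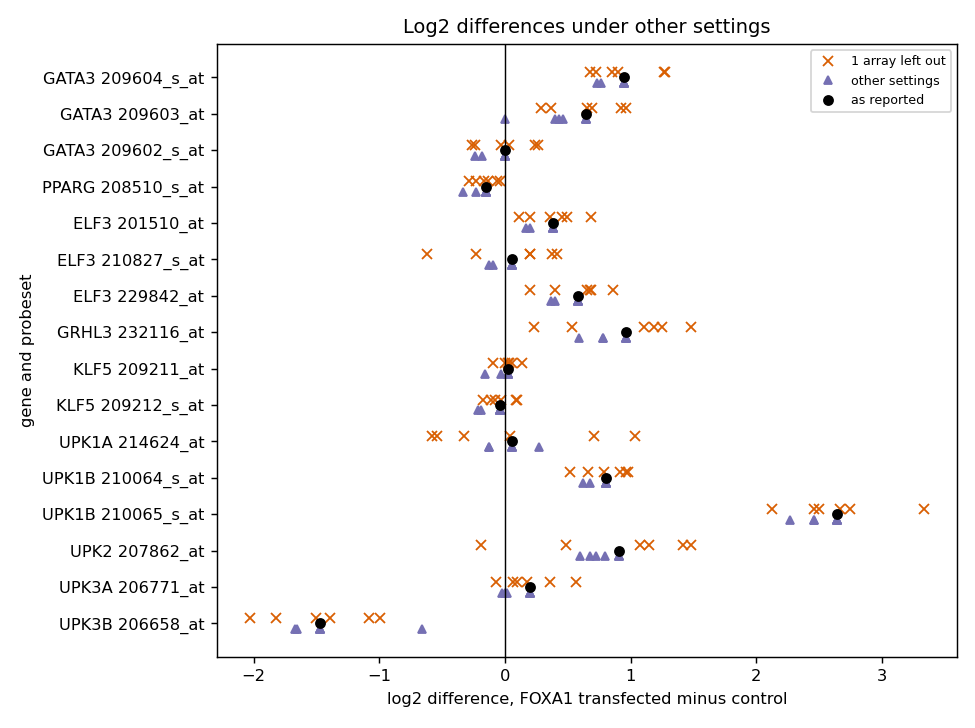
Log2 difference of each member probeset, FOXA1 transfected minus control (x axis), as reported (circles), with 1 array left out (crosses) and under the other settings (triangles). At the UPK1B probesets every value lies above 0, from 2.13 to 3.33 at 210065_s_at and from 0.51 to 0.98 at 210064_s_at, whereas UPK1A, UPK2, UPK3A, KLF5, GATA3 209602_s_at and ELF3 210827_s_at have values on both sides of 0.

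Genes that work with the members were read from lists, each gene at its brightest probeset, beside lists of basal and mesenchymal genes. Of these 64 genes none passed limma over all probesets in either direction or SAM. At an unadjusted p under 0.05 (limma) 7 of the 64 were higher in FOXA1 transfected cells, the transfected gene FOXA1 itself among them. Of all genes 9.07% were higher at that value. Lower were 4 of the 64, where 5.49% of all genes were. Of 28 partners of the luminal program, FOXA1 among them, 17 lay above 0 and 11 below (median 0.12). IRF1, an interferon regulatory factor, had 64.7, 78.2 and 65.4 in FOXA1 transfected and 41.4, 49.6 and 48.1 in control cells (log2 difference 0.58, adjusted p = 0.212 from limma). TFAP2A, a developmental AP-2 factor, had 329, 336 and 317 in FOXA1 transfected and 426, 453 and 341 in control cells (log2 difference -0.30, adjusted p = 0.316 from limma). In neither gene did the groups overlap.

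Of 9 paralogs of the regulators, 6 lay above 0 and 3 below (median 0.07). GRHL1, a relative of GRHL3, differed by 0.37 on the log2 scale and GATA6, a relative of GATA3, by 0.66, both without overlap (adjusted p = 0.337 and 0.365 from limma). KLF4, a relative of KLF5, differed by -0.61 with overlap (adjusted p = 0.416 from limma). Of 12 measured partners and targets of PPARG, 4 lay above 0 and 8 below (median -0.05). The secreted lipase inhibitor ANGPTL4 had 229, 270 and 216 in FOXA1 transfected and 332, 297 and 320 in control cells (log2 difference -0.41, adjusted p = 0.181 from limma), without overlap. The fatty acid carrier FABP5 ran the other way, at 4238, 4330 and 3809 in FOXA1 transfected and 3403, 3316 and 3750 in control cells (log2 difference 0.24, adjusted p = 0.299 from limma), and its relative FABP4, near background, differed by 1.63. FABP4 and ANGPTL4, both known targets of PPARG in fat cells, thus lay on opposite sides of 0.

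Of 14 basal genes listed, 8 were measured by a probeset with exactly 1 symbol. KRT6A, KRT6B, KRT6C, KRT17, TP63 and COL17A1 had no such probeset and were not read. Of the 8 measured, 6 lay above 0, with a median of 0.21, and 6 were near background. The basal adhesion gene CD44 differed by 0.15, DSC3 by 0.60 and CDH3 by 0.62 on the log2 scale, whereas the basal keratin KRT5 differed by -0.66. DSC3, CDH3 and KRT5 were near background, and in each the groups overlapped. CDH3 was under 3.5 in all 6 arrays, and its difference was 0 with signals under 3.5 set to 3.5. That of KRT5 was then -0.37. Of 8 mesenchymal genes 4 lay above 0 and 4 below (median -0.03). The smallest adjusted p of any list gene, 0.118 from limma, was that of CDH2, the mesenchymal cadherin, at 397, 349 and 339 in FOXA1 transfected and 518, 513 and 453 in control cells (log2 difference -0.45), without overlap. FN1, a matrix protein, differed by -0.88 and ZEB2, a repressor of epithelial genes, by 0.29.

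For the 2 regulators above the background level, the genes whose log2 signals followed them most closely over the 6 arrays were found among 21036 probesets. For PPARG they were ZNF677 (Pearson r = 0.998) and P3H4 (r = 0.996), and for KLF5 (209211_at) they were LINC00342 (r = 0.995) and RAB11A (r = 0.987). With so few arrays, all of them sharing cells and scale, 139 probesets had r over 0.9 with PPARG and 106 with KLF5, and these are given as a description.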

How the data were processed

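The authors scanned HG-U133 Plus 2.0 arrays and deposited MAS5 signals, which are linear intensity values, 1 for each probeset on an array. The methods name RMA log2 values and SAM, but the deposited values are not RMA values. Groups came from the labels. Of 54675 probesets 62 array controls were left out. Genes came from the platform annotation (1 symbol for 41091 probesets, several for 1801 and none for 11721, which are unnamed here). Member probesets carry exactly 1 symbol.

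The 25 signals listed at 0 were set to 0.1 and all were converted to log2. Groups were compared in limma 3.58.1 (R 4.3.3; two-sided, lmFit and trended eBayes). P-values were adjusted by Benjamini-Hochberg over 54613 probesets, with a threshold of 0.05. The test was tried on simulated data. Exact permutation tests used all 20 splits of 3 arrays against 3. SAM was an implementation written here. All 10 members were named, with full statistics for the brightest probeset and for those without overlap, and up to 3 genes of each list with the smallest p. The members and lists were chosen with earlier results of these data known. Alternatives covered the test, scale, floor, filter, replicate block and each array left out. The annotation gives UPK3B an older gene identifier than RefSeq, and the accession of its probeset is listed for the current gene. The number of arrays limits the precision. Between any 2 arrays the log2 signals had a Pearson r of 0.924 to 0.936 across probesets. Proteins of the members were not analysed here.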

Additional observations from a re-analysis of the deposited data

How the results depend on the processing

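No member probeset passed under any alternative run: SAM, limma without the trend, quantile normalization, median centring, floors at 3.5 or at 1, dim or _x_at probesets left out, the replicate block, and each array left out. The 2 UPK1B probesets kept their sign in all 15, with adjusted p from 0.0878 to 0.525 at 210065_s_at and from 0.269 to 0.640 at 210064_s_at (limma). The lower ends came from leaving out dim probesets, which lowers the number tested. That filter kept 210065_s_at, at a mean of 14.7 over the 6 arrays against a level of 14.5, only through its FOXA1 transfected arrays, so its value there is no support. Over the whole table the count of called probesets, 32, was 4 with SAM (1 shared), 1 without the trend, 7 with centring, 2 with values under 1 set to 1, 174 without dim probesets, 85 with the replicate block and 4 to 76 with 1 array left out (10, 6 and 76 without FOXA1 transfected array 1, 2 or 3, and 10, 5 and 4 without control array 1, 2 or 3). With the 20th-percentile floor it was 37, of which 6 were shared. Replicate numbers were not read as pairing the arrays. Over probesets not near background, the deviations of same-numbered arrays from their group means correlated at 0.0605, 0.177 and 0.122. Each array correlated best with its own number. As deviations are taken from the mean of the same few arrays, these correlations are tied to each other. They cannot decide whether the arrays were paired.

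The member median of 0.29 was 0.0736 with quantile normalization, 0.109 with centring, 0.0254 without dim probesets (5 members left, 3 above 0, a choice of members that depends on the UPK1B difference) and 0.171 to 0.516 with 1 array left out (0.516 without FOXA1 transfected array 1). The median of all probesets, 0.081, was -0.00456 with quantile normalization, -0.101 with centring and 0.0256 to 0.123 with 1 array left out. Members without overlap were 2 to 6 with 1 array left out, 4 without FOXA1 transfected array 1 (26.5% of all probesets) and 6 without control array 3 (30.7%). Near background were 3 members at the 20th percentile, not 11.

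Signs turned at 6 member probesets. With quantile normalization ELF3 210827_s_at was at -0.0924, KLF5 209211_at at -0.0277, UPK1A at -0.127 and UPK3A at -0.0213, and with centring ELF3 210827_s_at was at -0.127, KLF5 209211_at at -0.157 and UPK1A at -0.126. With 1 array left out ELF3 210827_s_at ranged from -0.620 to 0.414, KLF5 209211_at from -0.0923 to 0.140, KLF5 209212_s_at from -0.172 to 0.0956, UPK1A from -0.578 to 1.04, UPK2 from -0.188 to 1.48 and UPK3A from -0.0692 to 0.562, while GATA3 209602_s_at, reported at 0, ranged from -0.264 to 0.264. The cause was not tested. Signals this close to background, read on 3 arrays a group, limit what could be detected for most members.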
